A study of Mus musculus with 2 samples.

Results

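Delta cells, the somatostatin-producing cells of the pancreatic islet, were examined in mouse islets profiled by single-cell RNA sequencing. They were chosen by their hormone counts, as the cells in which Sst, the somatostatin gene, held at least 1% of the UMIs (unique molecular identifiers, each standing for 1 captured transcript) while insulin (Ins1 and Ins2 added), Gcg (glucagon) and Ppy (pancreatic polypeptide) each held less than 1%. This rule selected 58 of 1483 cells, called Sst-only cells here, of which 35 of 735 were in library 1 and 23 of 748 in library 2. Both libraries were technical replicates of control islets from 8-week-old male C57BL/6J mice, with 10000 input cells each, prepared with RevGel-seq, which ties each cell to a barcoded bead and keeps the pairs apart in a gel until the RNA is captured. The labels give no transgene, deletion or treatment, and how many mice were pooled is not given in the sources used here. The p-values therefore measure only the spread between 2 libraries of 1 preparation, which is technical. Library 1 held 15931154 UMIs and library 2 held 17440292, and the tables shared 0 barcodes.

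Somatostatin is an inhibitory peptide: released next to beta and alpha cells, it acts on their somatostatin receptors and lowers the release of insulin and glucagon. Delta cells depend on the homeodomain factor Hhex, send out long processes that touch many neighbours, and are electrically excitable. They are known to respond to ghrelin, the stomach hormone sensed by Ghsr, and to urocortin 3 from beta cells, sensed by Crhr2.

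The Sst gene lies on chromosome 16 of the mouse genome (GRCm38, chr16:23889573-23890958, minus strand, in GENCODE M21). RefSeq places the start site 114 bases downstream of the GENCODE start, so the last 114 bases of the stretch shown, the element included, lie before the RefSeq start but inside the GENCODE gene. Its promoter is shown because Sst transcription defines the cells and because this stretch holds the cyclic AMP response element for which the gene is well known. The line gives the 250 bases before the RefSeq start site (GRCm38.p6, chr16:23890845-23891094, minus strand), 5′ to 3′, with the element in capitals.
Sst promoter: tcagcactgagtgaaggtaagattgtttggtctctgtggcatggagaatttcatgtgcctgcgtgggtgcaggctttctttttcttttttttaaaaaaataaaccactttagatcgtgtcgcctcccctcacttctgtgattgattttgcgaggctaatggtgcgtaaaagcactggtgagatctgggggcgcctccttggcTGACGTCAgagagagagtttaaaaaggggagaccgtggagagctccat
The palindrome TGACGTCA starts 48 bases before the start site, and 588 of 32851 RefSeq promoters (1.79%) hold it on either strand in the window from 250 bases before to 50 bases after their start. The homeodomain core TAAT, searched on both strands, was found 1 time in the Sst window and in 58.0% of all promoters. RefSeq held 14 windows of 12 other genes described below (Hhex, Rbp4, Dscam, Ghsr, Ptprz1, Spock3, Cacna2d2, Adh1, Pdk4, Cadps, Ffar1 and Ociad2), and 0 of these 14 held TGACGTCA. A match is a description of the letters and not evidence of binding.

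The share of Sst-only cells was 4.76% in library 1, with a 95% Clopper-Pearson interval of 3.34% to 6.56%. In library 2 it was 3.07%, with an interval of 1.96% to 4.58%. The mean of both was 3.92% ± 1.20 (SD, n = 2). These intervals and all limits below cover counting error only. Sst reached 1% in 271 cells, so Sst-only cells were 21.4% of all cells with Sst. The most frequent partner was Ppy, which reached its limit in 177 of the 271 cells, followed by insulin in 36 and Gcg in 29.

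The values used by the rule are given as a description. In Sst-only cells Sst was 2.85% to 15.0% of UMIs, with medians of 9.07% in library 1 and 9.12% in library 2, which is 322 to 3144 UMIs per cell. The lowest members had 2.85% and 3.09%, and the nearest cells below the limit that met the other conditions had 0.706% and 0.293%. A gap thus separated both sides of the Sst limit, and the 2% limit selected the same number of cells. Insulin stopped at 0.742% in the highest member against 1.56% in the next cell outside, and Gcg at 0.353% against 4.35%. Ppy showed no such gap: the highest members had 0.861% and 0.844%, and the next cells outside had 1.02% and 1.04%. Among the 206 cells with Sst at 1% or more and with insulin and Gcg below the limit, 33 had Ppy below 0.3%, 25 had 0.3% to 1%, and 148 had 1% or more. Library 1 gave 23 of the 33 cells with least Ppy and 12 of the 25 with more, and library 2 gave 10 and 13, so the median Ppy share of Sst-only cells was 0.145% in library 1 and 0.447% in library 2. In cells with no hormone at 1%, the median Ppy share was 0.0654% ± 0.00445 (SD, n = 2). Insulin and Gcg, at medians of 0.199% ± 0.0226 and 0.0942% ± 0.0223 in Sst-only cells, lay near the 0.176% ± 0.0198 and 0.0832% ± 0.0117 of cells with no hormone.

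**Figure D1:**
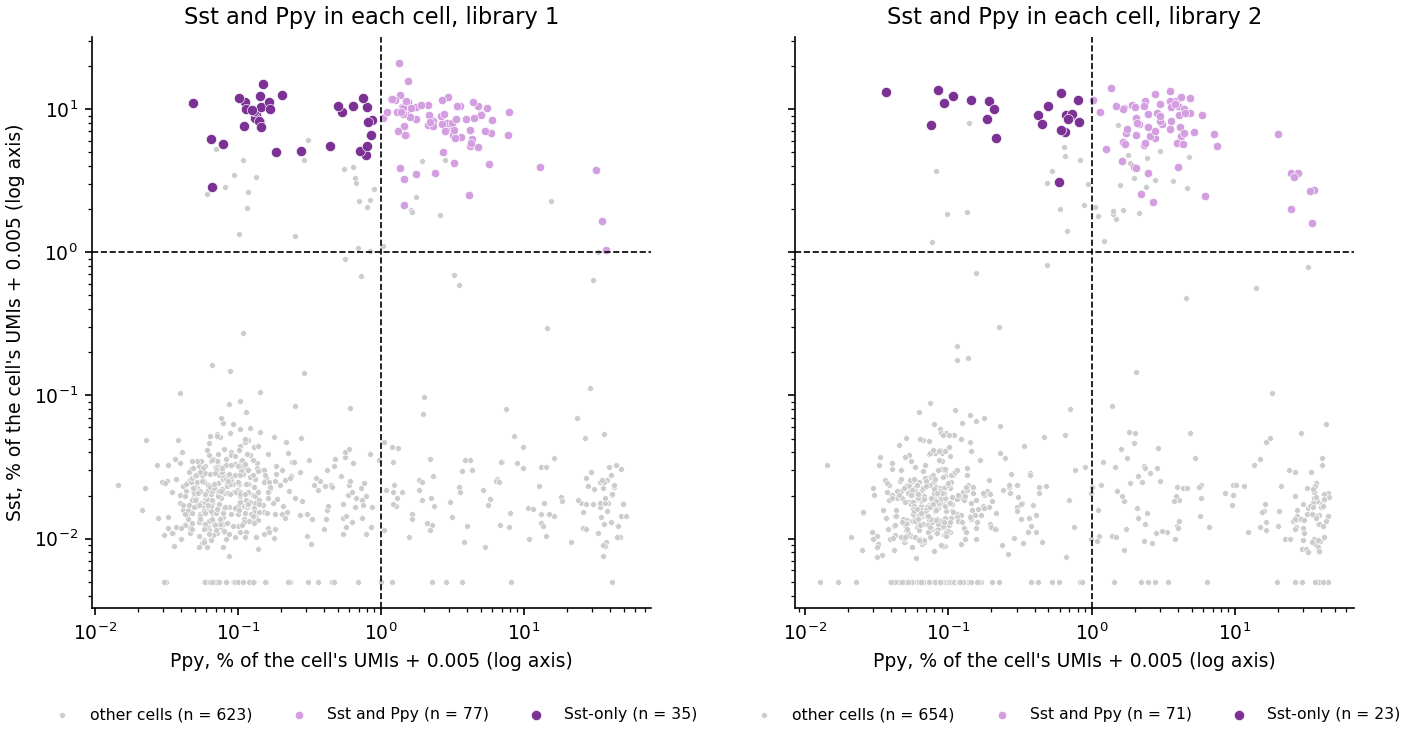
Sst share (vertical axis) against Ppy share (horizontal axis) of each cell in library 1 and library 2, both as percent of UMIs plus 0.005 on log axes, with dashed lines at 1%. The 58 Sst-only cells (dark purple) lie far above most other cells in Sst but continue without a gap in Ppy into the 148 cells with Sst and Ppy (light purple), and grey points above the horizontal line also pass 1% of insulin or Gcg.

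The label of delta cells was checked against Hhex, Rbp4, Ly6h and Dscam, which the rule did not use but which were proposed with results of these cells known, so they are no independent support. Of the 58 cells, 28 held a UMI of all 4 genes, 26 of 3 genes and 4 of 2 genes. None of the 356 Gcg-only cells and none of the 183 cells with no hormone had 3 or more. Of 372 insulin-only cells, 1 had 3. The 122 Ppy-only cells were not counted in this check. Among the 148 cells with Sst and Ppy, 68 held all 4 genes and 63 held 3. Rbp4 was detected in 58 of 58 Sst-only cells, Hhex in 55 (94.8%), Dscam in 43 (74.1%) and Ly6h in 42 (72.4%). Cells with no hormone had a similar median depth (14085 UMIs against 13259.5). Their shares were 30.6% for Hhex, 4.37% for Dscam and 0 of 183 for Ly6h. Exactly 1 of the 4 genes was held by 345 Gcg-only cells, 164 insulin-only cells and 81 cells with no hormone. Rbp4 was also present in the other classes, at the lower levels given below. The doublet caller Scrublet marked 16 of all 1483 cells and 0 of the 58, and no cell was removed for it.

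Markers of other cell types were low in most Sst-only cells. Endothelial markers (7 genes) summed to 0 UMIs in 34 of 58 cells and to at most 4 in all others but 1, a library 1 cell with 246 UMIs of them and the lowest Sst share of all. Stellate markers were at 0 in 53 cells and acinar markers in 56. Leukocyte markers ranged from 0 to 13 UMIs per cell, with Cd3e, Cd3d and Lyz2 at 0. C1qa had 61 UMIs in 34 of the 58 cells, Ptprc 13 in 2 and Cd79b 8 in 3. Of 5 leukocyte markers tested, these 3 were called higher than in Gcg-only cells and 0 lower. Against the mean of the single-hormone classes 0 were called. Ductal markers ranged from 0 to 13 UMIs, mostly of Krt7, which 50 of the 58 cells held and which was as high in Gcg-only cells (200 and 206 CPM as defined below, against 200 and 211). Sox9, another ductal marker, had 27 UMIs in 9 members. It was called higher in the first comparison below and against Gcg-only cells, and Krt7 was called lower in the first. The 6 alpha cell markers summed to 0 to 24 UMIs per cell (median 6). In the first comparison below 5 of them were called lower and 1, Gc, was called higher. Against Gcg-only cells all 6 were called lower. The 7 beta cell markers summed to 45 to 577 UMIs (median 181), which was mostly Iapp, described below. The part of the endothelial, leukocyte, stellate, ductal and acinar markers was tested only by removing members that held them. The count without members of 5 or more such UMIs is given beside the first comparison. No cells were removed for alpha or beta cell markers. Kdr and Flt1, endothelial genes called higher in that comparison (log2 fold change 2.38 and 2.69), were at -2.71 and -0.82 without the 1 cell.

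Sst-only cells held a median of 4395 genes in library 1 and 4546 in library 2. With each cell thinned to 4000 UMIs, the medians were 2178 and 2147 genes, or 2162 ± 21.9 (SD, n = 2). This was above the 1822 ± 10.6 of Gcg-only, 1633 ± 4.24 of Ppy-only and 1520 ± 50.9 of insulin-only cells by more than the spread, and near the 2142 ± 2.12 of cells with Sst and Ppy. With the hormone genes left out before thinning, Sst-only cells had 2308 ± 24 genes against 2244 ± 0.0 in Gcg-only, 2278 ± 22.6 in Ppy-only and 2204 ± 1.41 in insulin-only cells, so the distances were much smaller. Cells with Sst and Ppy then had 2338 ± 10.6 genes, above the Sst-only cells. With only a pair of libraries per class, no exact test could reach a p of 0.05, and none was run.

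The first comparison asked which genes set Sst-only cells apart from the other cells with a single hormone. UMIs were summed per library and class, the hormone genes were left out, and levels are given as CPM, that is UMIs of the gene per 1000000 of the remaining UMIs. The Sst-only sums were compared with the mean log2 level of Gcg-only (356 cells), insulin-only (372) and Ppy-only (122) cells by edgeR's quasi-likelihood test with Benjamini-Hochberg adjustment over 13142 genes. At an adjusted p under 0.05, 1176 genes (8.95%) were higher and 812 (6.18%) were lower in Sst-only cells, with 842 and 395 of them beyond 2-fold. Because the comparison is with a mean of 3 classes, a gene can be higher in Sst-only cells than this mean and still be below 1 of the classes, which is said where it holds. The count of 1988 was 1162 without the Sst-only sum of library 1 and 1458 without that of library 2. With the same number of cells in every sum it was 937, of 8539 genes then tested. Without the members that held 5 or more UMIs of non-endocrine markers it was 1317 of 13171. DESeq2 called 1115 genes higher and 500 lower. The lists below were put together with earlier results known, so their counts are descriptions. They are to be read beside the 8.95% and 6.18% called over all genes.

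Transcription factors gave some of the widest differences. Hhex, the factor that delta cells need, had 316 CPM in library 1 and 479 in library 2 of Sst-only cells. It had 0.354 to 1.14 CPM in Gcg-only, 2.11 to 4.43 in insulin-only and 5.86 to 7.73 in Ppy-only cells, so the groups lay far apart (log2 fold change 7.09, SE 0.23, edgeR adjusted p = 1.27e-19). Neurog3, the factor that starts endocrine differentiation, had 46.1 and 67.0 CPM in Sst-only cells, where 20 of 58 cells held it, and at most 4.21 in the other 3 classes (5.50, SE 0.51, edgeR adjusted p = 1.9e-09). Pdx1, known from beta cells, had 154 CPM in both Sst-only sums. It lay between the 336 and 337 CPM of insulin-only cells and the 1.42 to 37.8 of the other classes. Mlxipl, a glucose-responsive factor, was placed likewise, with 501 and 821 CPM against 984 and 988 in insulin-only and 30.1 to 137 in the others. Isl1, an islet differentiation factor, had 617 and 898 CPM and was above all 6 sums of the other classes, of which the highest was 535 (0.72, SE 0.11, edgeR adjusted p = 1.04e-05).

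Several other factors known from alpha or beta cells were low or nearly absent. Irx2, an alpha cell factor, had 2.20 and 3.35 CPM against 286 and 301 in Gcg-only cells. Nkx6-1, a beta cell factor, had 28.6 and 10.1 CPM in 6 of 58 cells, below all 6 sums of the other classes (65.2 to 1510, log2 fold change -4.15, SE 0.25, edgeR adjusted p = 2.11e-13). Mafa, which drives insulin transcription, was 1 UMI in 1 cell, and its call against the mean of the 3 classes was lost without either Sst-only sum (edgeR adjusted p = 0.0534 and 0.0749). Of 34 listed islet factors, 32 were tested, 12 were higher and 9 lower, and the median log2 fold change was 0.27 (0.34 with genes at 0 set to their limit) against -0.02 over all genes tested. Without either library's Sst-only sum, 10 and 5 of these were still called.

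Receptors showed which signals the cells could receive at the level of RNA. Ghsr, the ghrelin receptor, had 39.6 and 83.8 CPM in Sst-only cells, 0 in all Gcg-only and insulin-only sums, and 0.859 and 2.35 in Ppy-only cells. Where a class has no UMI, it is set to the 3 UMIs that a count of 0 allows in its summed libraries, and on that basis Ghsr was at least 104-fold higher than in Gcg-only and at least 96.7-fold higher than in insulin-only cells (edgeR adjusted p = 9.12e-11). It was seen in 22 Sst-only cells (37.9%) against 0.546% of cells with no hormone. Crhr2, the urocortin 3 receptor, had 39.6 and 57.0 CPM and at most 1.72 in the other classes (edgeR adjusted p = 2.6e-09). P2ry1, a purine receptor, had 81.3 and 114 CPM, above the 61.3 and 67.4 of insulin-only cells and the 0 to 0.859 of the rest. Oxtr, the oxytocin receptor, had 61.5 and 67.0 CPM, above insulin-only and Ppy-only but below the 109 and 128 of Gcg-only cells. Glp1r, which senses the incretin GLP-1, had 160 and 158 CPM, far below the 1420 and 1470 of insulin-only cells and above the 5.67 to 34.4 of the others. Gcgr, the glucagon receptor, had 43.9 and 13.4 CPM in 10 of 58 cells, and its call was lost without the Sst-only sum of library 1 (log2 fold change 1.41, edgeR adjusted p = 0.399).

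Other receptors were lower in Sst-only cells. Ffar1, a receptor of long-chain fatty acids, had 6.59 and 0 CPM against 89.1 to 526 in the other classes (log2 fold change -5.53, SE 0.39, edgeR adjusted p = 7.26e-12). Vipr1, a receptor of vasoactive intestinal peptide, had 4.39 and 10.1 CPM against 43.9 to 136. Gipr, the receptor of the incretin GIP, had 65.9 and 90.5 CPM, below the 104 to 378 of the other classes by a smaller margin (-1.26, SE 0.19, edgeR adjusted p = 1.66e-05). Gpr119, a lipid receptor, was at 0 in both Sst-only sums, at least 8.76-fold lower than in Gcg-only cells. Of 40 listed receptors 26 were tested, with 9 higher and 8 lower (median log2 fold change 0.15), of which 5 and 6 were still called without either Sst-only sum. In Sst-only cells 11 of the 40 had 0 UMIs, which at this depth allows up to 3.98 CPM. Of the somatostatin receptors, Sstr3 was found in 46 Sst-only cells at 167 and 194 CPM, with no call (log2 fold change -0.29, edgeR adjusted p = 0.192). Sstr1 had 11 and 16.8 CPM and 0 in all 6 sums of the other classes, at least 12.7-fold higher than in Ppy-only cells. Sstr2 was at 0 in Sst-only cells and at 14.9 and 18.1 CPM in Gcg-only cells, at least 4.15-fold lower, a call against Gcg-only cells that was lost without the Sst-only sum of library 1 (edgeR adjusted p = 0.0613).

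**Figure D2:**
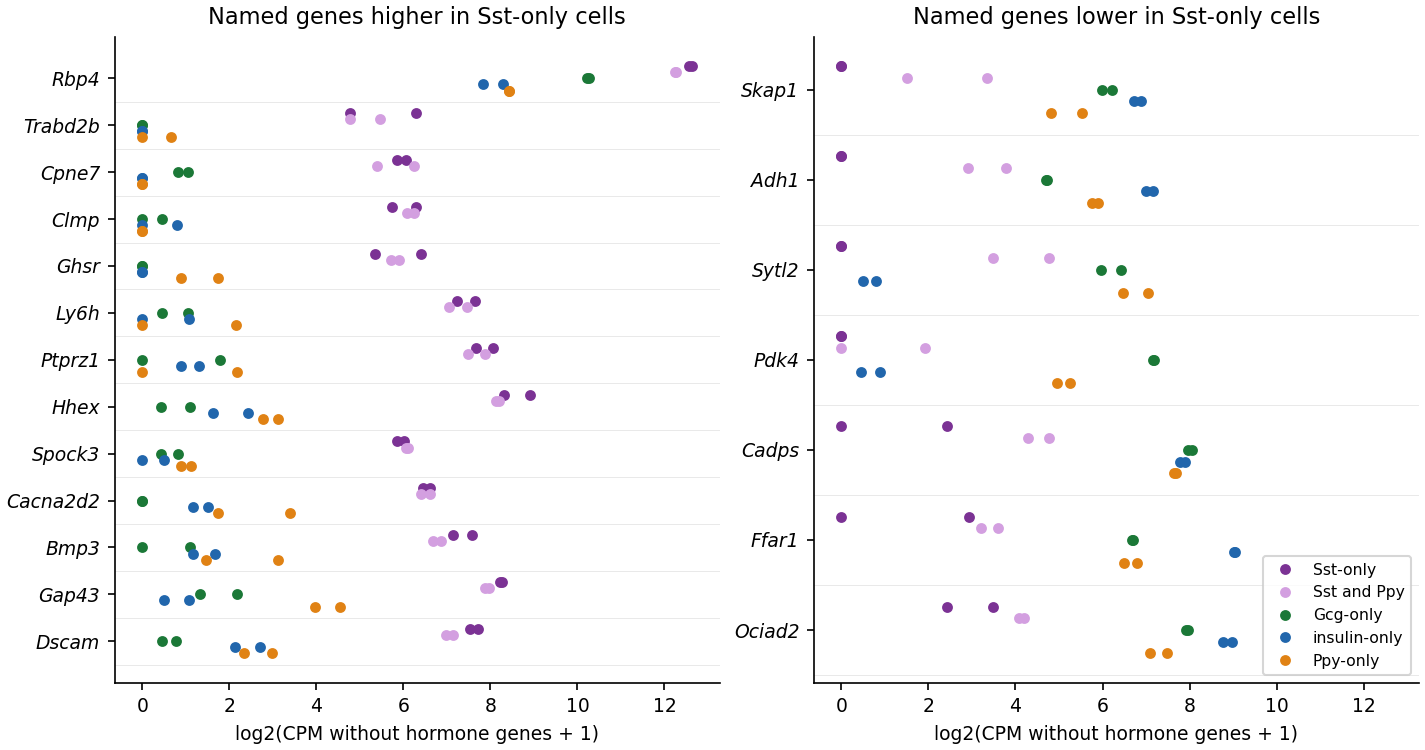
Levels, as log2(CPM without hormone genes + 1) on the horizontal axis, of Rbp4 and the genes named by rule as higher (left) or lower (right) in Sst-only cells, with 1 point for each library and class. Both Sst-only points (dark purple) lie above, or below, all points of the Gcg-only, insulin-only and Ppy-only classes. The rule required this of every gene but Rbp4. Sytl2 and Pdk4 in insulin-only cells were no higher than the 3.98 CPM that 0 UMIs allow in Sst-only cells. The cells with Sst and Ppy (light purple) lie beside the Sst-only cells for the higher genes.

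Ion channels that set excitability were called in both directions. Cacna1h, a T-type calcium channel, had 43.9 and 43.6 CPM in Sst-only cells against 0 to 6.88 in the other classes (log2 fold change 5, SE 0.50, edgeR adjusted p = 1.09e-08). Kcnb2, a delayed rectifier potassium channel, had 127 and 67.0 CPM against 2.35 to 29.9 (3.10, SE 0.28, edgeR adjusted p = 1.02e-09). Kcna5, another potassium channel, had 46.1 and 26.8 CPM and 0 in insulin-only cells, which makes it at least 65.2-fold higher than there. Scn9a, a voltage-gated sodium channel, had 226 and 298 CPM against 87.5 to 182. These 4 channels were picked from the 12 called higher, and their Sst-only sums did not overlap those of the other classes. How many of all tested genes met this without a CPM limit was not counted. Among lower channels, Kcnh6 was 1 UMI in 1 Sst-only cell against 19.8 to 59.3 CPM in the others, and Kcnn3, a calcium-activated potassium channel, had 15.4 and 13.4 CPM against 45.3 to 70.1. The KATP channel genes differed less. Abcc8 had 839 and 949 CPM with no call (0.18, edgeR adjusted p = 0.16). Kcnj11 had 308 and 261 CPM, just above the 152 to 247 of the other classes (0.53, edgeR adjusted p = 0.00263), a call lost without the Sst-only sum of library 1 (0.35, edgeR adjusted p = 0.272). Of 34 channels tested, 12 were higher and 6 lower (median 0.34), and 6 and 2 were still called without either Sst-only sum.

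Neural adhesion and projection genes were mostly higher. Dscam, an adhesion molecule of the immunoglobulin family, had 185 and 208 CPM in Sst-only cells and at most 6.88 in the other classes (log2 fold change 6.19, SE 0.25, edgeR adjusted p = 4.51e-17). Ly6h, a membrane-anchored protein of the nervous system, had 149 and 198 CPM and at most 3.44 elsewhere (7.42, SE 0.37, edgeR adjusted p = 3.46e-15). Gap43, a growth cone protein, had 305 and 298 CPM against 0.421 to 22.3 (6.32, SE 0.21, edgeR adjusted p = 5.24e-19). The groups did not overlap for any of these 3 genes, which the rule for naming required. Over all called genes, 501 higher and 330 lower ones met this with at least 50 CPM on the higher side. Ncam2, an adhesion molecule, had 90.1 and 114 CPM against 0.369 to 12.3. Efna5, an ephrin that guides cell contacts, had 259 and 251 CPM against 25.8 to 57.6. Cdh2, the N-cadherin gene, had 376 and 318 CPM against 108 to 200. Going the other way, Robo2, a guidance receptor that shapes islets, had 123 and 87.2 CPM, below the 286 to 345 of the other classes (-1.62, SE 0.15, edgeR adjusted p = 2.23e-09). Nrcam was at 0 in Sst-only cells and at 43.0 and 37.2 CPM in Gcg-only cells, and its call against the mean was lost without the Sst-only sum of library 1 (edgeR adjusted p = 0.109). Of 25 genes tested, 14 were higher and 3 lower, with a median log2 fold change of 1.34 against -0.02 over all genes. Without either Sst-only sum 10 and 1 were still called.

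The machinery of secretion differed in its parts. Syt1, a fast calcium sensor of exocytosis, had 211 and 221 CPM in Sst-only cells against 2.35 to 14.5 in the other classes (log2 fold change 5.08, SE 0.24, edgeR adjusted p = 8.58e-16). Stxbp5l, a regulator of vesicle fusion, had 246 and 221 CPM against 24.4 to 45.5. Rab3b, a small GTPase on secretory vesicles, had 288 and 245 CPM against 30.5 to 76.2. In contrast Cadps, which primes dense-core vesicles, was 2 UMIs in 1 of 58 cells, or 4.39 and 0 CPM, against 198 to 267 in the other classes (-6.49, SE 0.38, edgeR adjusted p = 1.78e-13). Its relative Cadps2 had 24.2 and 36.9 CPM against 14 to 25.7, with no call (0.66, edgeR adjusted p = 0.289). Rab3c had 22.0 and 6.7 CPM and overlapped the 5.47 and 10.7 of insulin-only cells, below the 148 to 204 of the other 2 classes. Of 24 exocytosis genes tested, 5 were higher and 7 lower (median 0.06), and 4 and 4 were still called without either Sst-only sum.

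Granins and the enzymes that process prohormones were detected throughout, with most of them lower. Chgb, a granin of secretory granules, had 11100 and 10700 CPM in Sst-only cells against 2110 to 4560 in the other classes (log2 fold change 1.66, SE 0.07, edgeR adjusted p = 2.25e-16). Scg2, another granin, had 9010 and 8180 CPM, near the 8650 and 8710 of insulin-only cells and above the 1660 to 5120 of the others. Chga went the other way, with 6240 and 5210 CPM, which touched the lower of the Ppy-only sums (5660) and lay below the rest, up to 32700 (-1.51, SE 0.13, edgeR adjusted p = 7.38e-10). Of the prohormone convertases, Pcsk2 had 5250 and 5120 CPM, within the 4880 to 10300 of the other classes. Pcsk1 had 108 and 77.1 CPM, between insulin-only (568 and 575) and Gcg-only cells (2.48 and 4.19), and its call was lost without the Sst-only sum of library 1 (0.50, edgeR adjusted p = 0.411). Cpe, the carboxypeptidase that trims prohormones, had 2030 and 2360 CPM, below the 2730 to 4140 of all other sums (-0.69, SE 0.08, edgeR adjusted p = 1.12e-07). All 11 genes were tested, 3 were higher and 6 lower (median -0.54), and 2 and 6 were still called without either Sst-only sum.

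Sst-only cells also held RNA of further secreted proteins. Rbp4, the retinol carrier, had 6360 and 6040 CPM against 228 to 1240 in the other classes (log2 fold change 3.57, SE 0.08, edgeR adjusted p = 2.39e-23). Iapp, the amyloid peptide released with insulin, had 15100 and 15400 CPM in Sst-only cells and was found in all 58. It lay between the 48300 and 49600 CPM of insulin-only and the 489 to 4190 of the other classes, while cells with no hormone had 1190 and 619. Pyy, a gut and islet peptide of the family of Ppy, had 12700 and 13000 CPM, between Ppy-only (41300 and 53900) and the 546 to 6280 of the rest. Pdyn, the opioid precursor prodynorphin, had 134 and 111 CPM in 20 of 58 cells, beside 118 and 74.1 in insulin-only and 0 to 3.44 in the others (5.11, SE 0.44, edgeR adjusted p = 4.68e-10). Thus Iapp and Pyy were each higher in 1 other class and Pdyn overlapped with insulin-only cells, while Rbp4 was above all of them. Wnt4, a secreted signalling protein, was lower with 76.9 and 114 CPM against 358 to 533 (-2.39, SE 0.17, edgeR adjusted p = 1.36e-11). Edn3, an endothelin, and Ucn3, the ligand of Crhr2, were each detected in 1 Sst-only cell, and both calls were lost without the Sst-only sum of library 1 (edgeR adjusted p = 0.119 and 0.259). Of 9 genes tested, 5 were higher and 3 lower (median 0.45), and 4 and 1 were still called without either Sst-only sum.

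The genes with the widest differences that the rule for naming selected also included several of no listed group. Trabd2b, a membrane protease that acts on Wnt proteins, had 26.4 and 77.1 CPM and 0 in Gcg-only and insulin-only cells, so it was at least 84.4-fold and 78.7-fold higher. Cpne7, a calcium-dependent membrane-binding protein, had 65.9 and 57.0 CPM and was at least 106-fold higher than in insulin-only and 59.7-fold higher than in Ppy-only cells. Clmp, an adhesion molecule, had 52.7 and 77.1 CPM and was at 0 in Ppy-only cells, at least 59.7-fold lower there. For all 3 genes both Sst-only sums were above every sum of the other classes, which the rule for naming required. Ptprz1, a receptor phosphatase of the nervous system, had 204 and 268 CPM against 0 to 3.52 (log2 fold change 7.13, SE 0.33, edgeR adjusted p = 5.59e-16). Bmp3, a signalling ligand, had 141 and 191 CPM against 0 to 7.73 (6.47, SE 0.33, edgeR adjusted p = 7.6e-15). Spock3, an extracellular proteoglycan, had 63.7 and 57.0 CPM against 0 to 1.17 (6.62, SE 0.46, edgeR adjusted p = 4.76e-12). Cacna2d2, an accessory calcium channel subunit, had 96.7 and 87.2 CPM and 0 in Gcg-only cells, at least 169-fold higher than there.

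Among the genes selected as lower, several had no UMI in any Sst-only cell. Skap1, an adaptor protein, was at 0 and thereby at least 28.1-fold lower than in insulin-only, 16.9-fold than in Gcg-only and 8.67-fold than in Ppy-only cells. Adh1, an alcohol dehydrogenase, was at 0 and at least 33.7-fold lower than in insulin-only cells. Sytl2, a synaptotagmin-like protein, and Pdk4, a kinase that inhibits pyruvate dehydrogenase, were at 0 as well. Sytl2 was at least 28.4-fold lower than in Ppy-only and 18.3-fold lower than in Gcg-only cells. Pdk4 was at least 35.7-fold lower than in Gcg-only and 8.58-fold lower than in Ppy-only cells. In insulin-only cells neither gene was above the 3.98 CPM that 0 UMIs allow in Sst-only cells, so no bound holds there. Without the Sst-only sum of library 1 the calls of Sytl2 and Pdk4 against the mean were lost (edgeR adjusted p = 0.116 and 0.0768), where a sum at 0 of 23 cells remained. Ociad2 had 4.39 and 10.1 CPM against 135 to 502 in the other classes (log2 fold change -5.38, SE 0.33, edgeR adjusted p = 4.69e-13).

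Smaller lists completed the comparison. Of 16 genes of glucose uptake and metabolism, 2 were higher and 2 lower (median 0.21). With so few members this is near the 8.95% and 6.18% called over all genes. The lower ones were G6pc2, the islet glucose-6-phosphatase, with 8.79 and 6.7 CPM beside 1900 and 1920 in insulin-only cells and 3.52 to 24 in the others, and Gpd2, a mitochondrial dehydrogenase, with 39.6 and 16.8 CPM against 43.8 to 239. The higher ones, Slc2a3 and Pck2, were not called without the Sst-only sum of library 1 (edgeR adjusted p = 0.121 and 0.134). Of 6 tested genes of amine and GABA handling, 1 was higher and 2 lower (median -1.74, or -1.30 with genes at 0 set to their limit). Ddc, the enzyme that makes dopamine and serotonin, had 8.79 and 26.8 CPM against 219 to 769 in the other classes (-4.79, SE 0.33, edgeR adjusted p = 5.45e-12). Of 11 immediate early and stress genes, 0 were higher and 6 lower (median -0.30), and 2 of the 6 were still called without either Sst-only sum. Fos, the best known and not called without the Sst-only sum of library 1 (edgeR adjusted p = 0.0588), had 1460 and 1690 CPM, above insulin-only (691 and 874) but below Gcg-only (2280 and 2600) and Ppy-only cells (3920 and 4140).

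**Figure D3:**
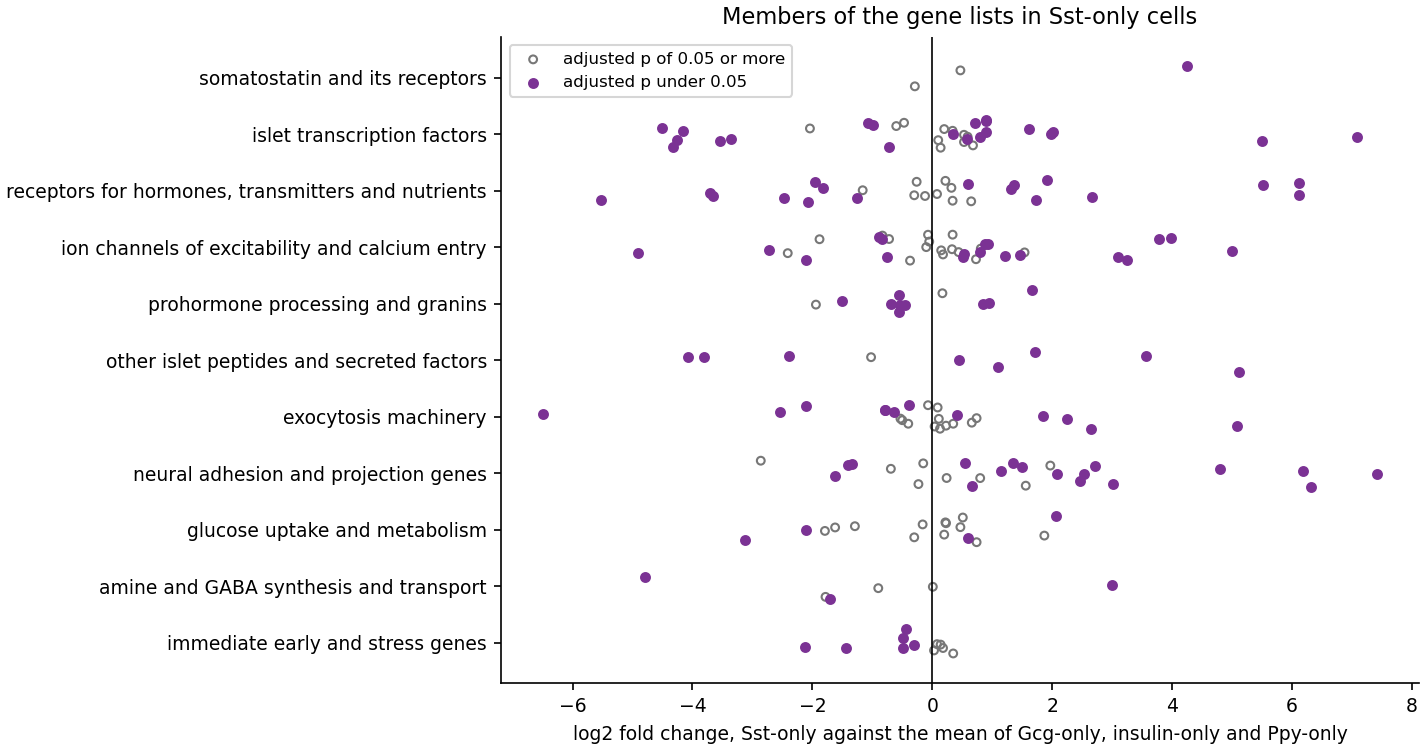
Log2 fold change (horizontal axis) of the tested members of 11 gene lists, in Sst-only cells against the mean of Gcg-only, insulin-only and Ppy-only cells, with genes at 0 in a class set to their limit. Filled points have an edgeR adjusted p under 0.05 and open points do not. The neural adhesion list lies mostly to the right (14 higher, 3 lower), and the granin list mostly to the left (3 higher, 6 lower).

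The second comparison set the same Sst-only sums against Gcg-only cells alone, a non-beta class as the Ppy-only cells are too. All comparisons of classes use the same Sst-only sums, so their results are given side by side and no overlap between them is drawn. Of 13142 genes, 1264 (9.62%) were higher and 1108 (8.43%) lower in Sst-only cells. P2ry1 had 0 and 0.354 CPM in Gcg-only cells against the 81.3 and 114 above. F5, coagulation factor V, had 96.7 and 174 CPM against 0 and 0.708. Pdx1 was higher as well (log2 fold change 5.19, edgeR adjusted p = 2.61e-13), as were Mlxipl (4.17, edgeR adjusted p = 3.13e-15) and Iapp (4.66, edgeR adjusted p = 1.07e-14), 3 genes that were below insulin-only cells above. Aard, Hhatl, Galnt13 and Igsf21 were at 0 in Sst-only cells, between at least 17.9-fold and at least 24.3-fold lower than in Gcg-only cells. Ttr, the thyroxine carrier abundant in alpha cells, had 290 and 248 CPM against 43700 and 45300 (-7.45, edgeR adjusted p = 2.76e-26). In the neural list 15 of 25 genes were higher and 4 lower, in the list of factors 12 and 12 of 32, and in the list of receptors 11 and 10 of 26. The immediate early list had 7 of 11 lower and 0 higher. With 23 cells in every sum the count over all genes was 1028, of 8539 then tested.

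The third comparison asked whether Sst-only cells differ from the 148 cells in which Sst and Ppy both passed 1%, again with the same Sst-only sums. Of 13142 genes, 1 (0.00761%) was higher and 3 (0.0228%) were lower in Sst-only cells at an adjusted p under 0.05, with 1008 genes at an unadjusted p under 0.05. DESeq2 called 5. Of the 11 gene lists above, 0 genes were called. The delta cell genes differed little: Hhex had 295 and 280 CPM in cells with Sst and Ppy (log2 fold change 0.42, SE 0.17, edgeR adjusted p = 0.542), and Rbp4 had 4950 and 4820 (0.33, edgeR adjusted p = 0.439). Ly6h had 131 and 176 CPM (0.14, edgeR adjusted p = 0.938), Dscam 126 and 141 (0.54, edgeR adjusted p = 0.526) and Ghsr 58.6 and 51.2 (0.09, edgeR adjusted p = 0.98). A p above the threshold does not show that the classes are equal.

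The lower genes included Ttr and Ccn1. Ttr had 290 and 248 CPM in Sst-only cells against 420 and 448 in cells with Sst and Ppy (log2 fold change -0.69, SE 0.13, edgeR adjusted p = 0.046). It stayed between 249 and 326 CPM in the 5 ranges of Ppy share below 5% and was at 1010 CPM in the 26 cells above. Without those 26 cells, a removal chosen after the values were seen, the log2 fold change was -0.07 (edgeR adjusted p = 0.954). The call of Ttr was near the threshold and was also lost with median-of-ratios scaling (edgeR adjusted p = 0.0787) and with other hormones below 0.5% (0.11). It was lost with equal cells in every sum (0.165) and without the member with most endothelial marker UMIs (0.0539). Without the members of 5 or more non-endocrine marker UMIs it was lost too (0.221). Without the Sst-only sum of library 2 the log2 fold change of Ttr was -0.62. Ccn1, a protein of the extracellular matrix, had 33.0 and 77.1 CPM against 214 and 154 (-1.86, SE 0.29, edgeR adjusted p = 0.00325). Its difference was as large without the 26 cells (-2, edgeR adjusted p = 0.00693), but the call was lost without the Sst-only sum of library 1 (-1.29, edgeR adjusted p = 0.255), with other hormones below 0.5% (-1.57, edgeR adjusted p = 0.111) and with equal cells in every sum (-1.82, edgeR adjusted p = 0.265).

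Dlk1, a membrane protein related to Notch ligands, was the 1 gene higher in Sst-only cells. The rule for naming left it out because 3 cells held most of its UMIs, and it is named here after its values were seen. It had 200 and 114 CPM in Sst-only cells against 30.7 and 17.4 in cells with Sst and Ppy (log2 fold change 2.72, SE 0.36, edgeR adjusted p = 0.000264). Only 8 of 58 Sst-only cells held it, with 125 UMIs, of which the top 3 cells gave 34, 31 and 19 (67.2%). In cells with Sst and Ppy 12 of 148 held 52 UMIs. Along the Ppy share the level went from 168 and 163 CPM in the 2 ranges below 1% to 55.4, 33.2, 0 and 2.23 in the 4 ranges above. Gcg-only, insulin-only and Ppy-only cells had at most 1.68 CPM, and cells with no hormone 0. Without the Sst-only sum of library 1 the call was lost (2.20, edgeR adjusted p = 0.244).

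Other genes of alpha and beta cells came near the threshold. The endothelin Edn3 had 36.3 and 44.8 CPM in cells with Sst and Ppy against 0 and 6.7 in Sst-only cells (edgeR adjusted p = 0.0912), and the beta cell factor Nkx6-1 64.2 and 77.7 against 28.6 and 10.1 (edgeR adjusted p = 0.0733), so neither passed. Both were also present in Ppy-only cells, with 91.1 and 50.4 CPM of Edn3 and 386 and 418 of Nkx6-1. Among cells with Sst and Ppy, both were highest in the 26 cells with Ppy at 5% or more. Edn3 had 107 CPM there against 6.86 to 43.7 in the ranges from 1% to 5%, where 1 cell gave 23 of the 26 UMIs of the 1% to 2% range. Nkx6-1 had 156 CPM there against 44.6 to 51.6. Among the delta cell genes, Hhex ran from 340 and 439 CPM in the 2 lowest ranges of Ppy share to 205 at 5% and more, Rbp4 from 5560 and 7180 to 3010, and Dscam from 195 and 192 to 75.9. Ly6h stayed between 132 and 195 CPM over all 6 ranges. These courses are descriptions and were not tested.

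**Figure D4:**
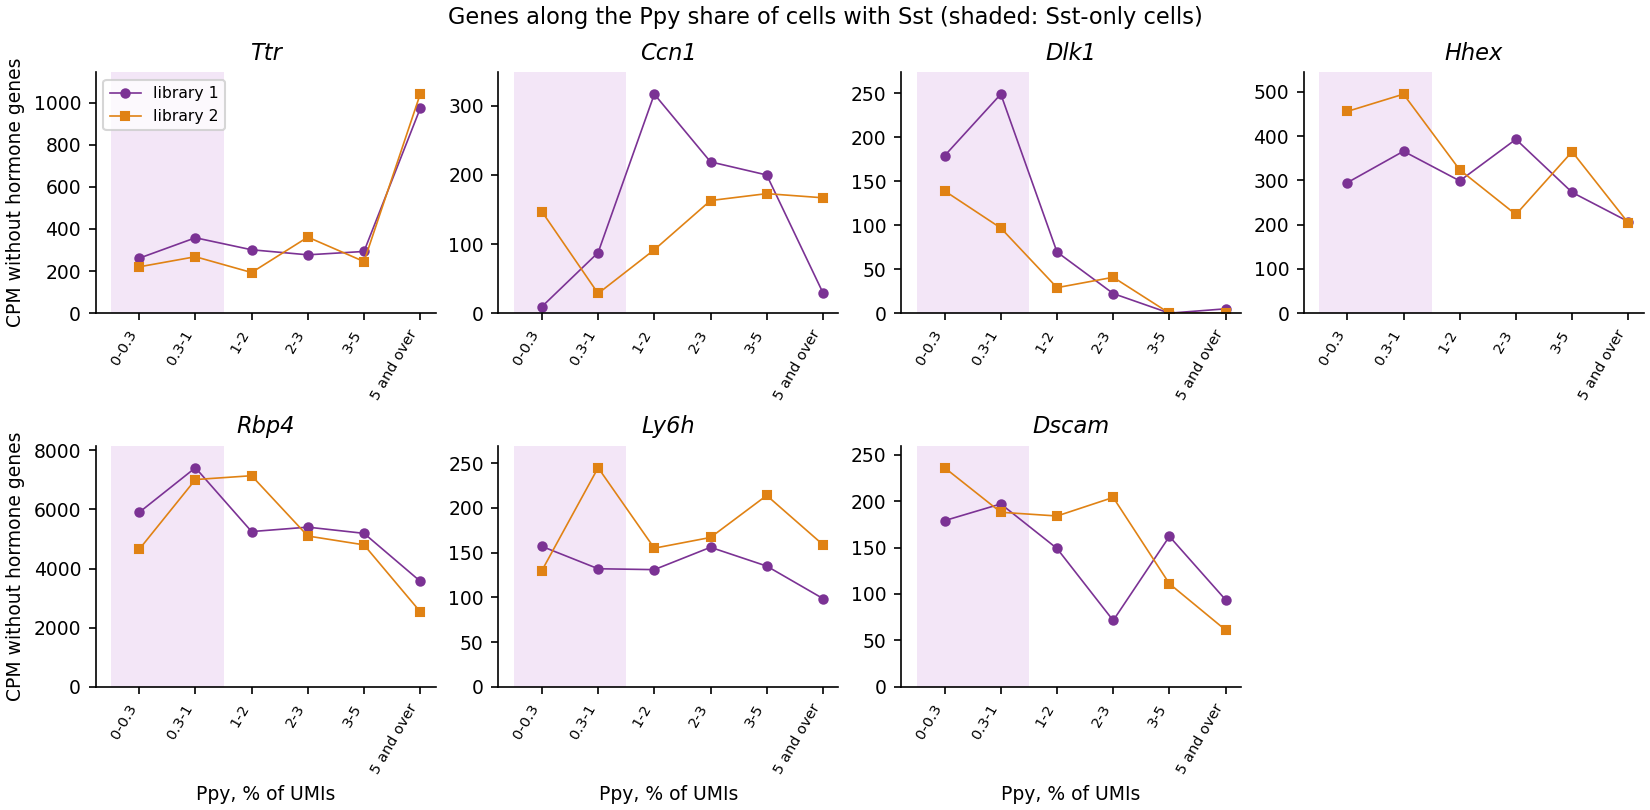
Level in CPM without hormone genes (vertical axes) of 7 genes in 6 ranges of the Ppy share, in percent of UMIs (horizontal axes), over the 206 cells with Sst and without insulin or Gcg at 1%, by library, with the ranges of Sst-only cells shaded. Over both libraries Ttr is highest at 5% of Ppy and more (1010 CPM), Dlk1 is highest in the shaded ranges (168 and 163 CPM), and Ly6h varies least (132 to 195 CPM).

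The last comparison stayed inside the Sst-only cells and asked which genes move with the level of Sst. The cells at or above the median Sst share of their library (18 in library 1 and 12 in library 2) were set against those below (17 and 11). Of 4748 genes tested, edgeR called 0 (0.0%), with 249 at an unadjusted p under 0.05, and DESeq2 called 0 with 62. Hhex had 337 and 622 CPM in the cells with more Sst and 294 and 351 in those with less (log2 fold change 0.54, SE 0.30, edgeR adjusted p = 0.897). Rbp4 had 5970 and 5980 against 6780 and 6090 (-0.11, SE 0.12, edgeR adjusted p = 0.93). Ly6h had 166 and 198 CPM against 131 and 198, and Dscam 208 and 184 against 159 and 230. The groups overlapped or nearly met for these 4 genes, and at this depth no gene was detected as differing with Sst among the 58 cells. The coefficient of variation between libraries beyond counting error was 17.6% here against 8.79% for the classes. The fits differed in the genes tested and in their sums, and why the spread differed was not tested.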

How the data were processed

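Both libraries were technical replicates of 1 islet preparation, and p-values measure only the spread between them. The authors deposited a table of UMI counts per gene and cell barcode for each library. Per the study's methods and the submitters' processing notes, Cytonaut detected cell barcodes by the knee method of UMI-tools, aligned reads to the exons of GRCm38 (Ensembl 99) and removed duplicates. Whether the strand was used in counting is not given in the sources used here. No normalization was applied to the deposited counts, 0 of their rows lacked a gene, and no cell was removed here.

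Cells were put into classes by the hormones that held at least 1% of their UMIs. Counts were summed per library and class over 10 sums (Sst-only, Sst with Ppy, Gcg-only, insulin-only, Ppy-only), and Sst, Ins1, Ins2, Gcg and Ppy were left out of totals, scaling and tests. edgeR 4.0.16 (R 4.3.3) fitted 1 quasi-likelihood model with TMM scaling and filterByExpr, with Benjamini-Hochberg adjustment over all genes tested. The split by Sst share was fitted on its own over 4 sums. DESeq2 1.42.0, other scaling, no filter, other limits, a library term and other removals were tried. The script was tested on simulated data. Clustering was not used, and doublets were called with Scrublet in scanpy 1.11.5 (Python 3.11.15).

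The genes named were those past an adjusted p of 0.05 whose Sst-only sums both lay outside all sums compared, with at least 50 CPM on the higher side and under 50% of the UMIs there in 3 cells. Of these the 12 with the largest fold change up and 8 down were taken for the first comparison and up to 8 each for the others. Gene models without a name were left out, and some genes that met the rule are not reported here. Members of the gene lists were named where they passed the test or are well known. The members, markers and lists were chosen with earlier results of these data known. Positions are from GENCODE M21, which held 32971 of 33038 gene ids. Counts of Spock3, Gap43, Cpne7, Clmp, Cadps, Cadps2, Syt1, Stxbp5l, Ncam2, Nrcam, Robo2, Kcnb2, Scn9a, Abcc8, Slc2a3, F5 and Galnt13 are uncertain where another annotated gene overlaps them on the same strand. Genes with a neighbour on the other strand, Dscam, Iapp and Pdx1 among them, cannot be told apart from it without strand.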

Additional observations from a re-analysis of the deposited data

How the results depend on the processing

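The share of Sst-only cells was 2.57% with the other hormones below 0.5% and 6.96% with them below 2%, and 3.07% to 4.76% in the single libraries. Genes per Sst-only cell were 4470 without thinning and 2308 with hormones left out first, and 2147 to 2178 in the single libraries. Genes called against the other single-hormone cells, 1988 as reported, were 1317 with members of 5 or more non-endocrine marker UMIs removed (which left 30 members), 937 with the same number of cells in every sum, and 1162 to 1458 without 1 of the Sst-only sums. Against Gcg-only cells the counts were 1028 with equal cells and 1563 to 1935 without 1 of the Sst-only sums, against 2372. Against cells with Sst and Ppy, 4 genes as reported, the counts were 59 without a filter on low counts, 8 with non-endocrine members removed, 2 with other hormones below 0.5%, 2 with Ppy at 5% or more removed, and 6 without either Sst-only sum. Between cells with more and less Sst, 0 as reported, the counts were 27 without the filter and 1 with members of 5 or more marker UMIs removed. The settings also differed in the genes tested. These were 8539 with equal cells, 29227 for the classes without the filter and 18230 for the split by Sst without it. Correlations of same-numbered sums' deviations ran from -0.0743 to 0.129, with 3 of 10 pairs of classes over 0.1 (Sst-only with Sst and Ppy at 0.119), so the library numbers were not taken to pair the sums, and with a replicate block the counts were 1934, 6, 2332 and 0. Kdr and Flt1, endothelial genes called higher than in the other single-hormone cells, rested on 1 Sst-only cell: their log2 fold changes were -2.71 and -0.82 without it. They were -7.76 and -1.46 with members of 5 or more marker UMIs removed. Over the fits and values without 1 library they ran from -2.44 to 3.56 for Kdr and from -0.14 to 3.7 for Flt1. Ptprc, a leukocyte gene called against Gcg-only cells and held by 2 members, was -4.47 with members of 5 or more marker UMIs removed and -4.61 to 3.92 without 1 library. Pax6 was -0.004 with other hormones below 0.5%. Of 3834 values for 296 single-gene results under alternatives with a test, 3506 kept direction and call, 319 lost the call and 9 turned direction, and the cause was not tested. Removals of the member with most endothelial marker UMIs, of cells with most Ppy and of 1 Sst-only sum were chosen after the data were seen. Leaving out a whole library left no residual degrees of freedom, so those are 592 values with no test, of which 590 kept their direction. Depth limits genes at 0 in Sst-only cells to 3.98 CPM.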
